A study of Mus musculus with 107 samples.

Results

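A set of 10 genes of the p53 pathway and the Cdkn2 locus were followed in tumors of 12 mouse syngeneic models, before dosing, without treatment and after lenvatinib (LEN), a multi-kinase inhibitor. The members were the rows of the expression table named Trp53, Cdkn1a, Mdm2, Ccng1, Cdkn2a, Cdkn2b, Bbc3, Bax, Gdf15 and Trp53inp1, and all 10 were found among 50686 genes, each once. Bulk RNA-seq had been made of tumors in 36 groups of 3, except the MC38 Base group, which held 2. The cancer cells had been injected under the skin of the right flank of mice that were 7 weeks old, and no group carried an engineered allele. Base tumors (35) were untreated and taken at about 100 mm3, the size at which dosing began. NT tumors (36) received no treatment and LEN tumors (36) received 10 mg/kg by mouth each day for 7 days, and both were taken on day 8.

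The models were BNL 1ME A.7R.1 and Hepa 1-6 (liver), Renca and RAG (kidney), LL/2 and KLN205 (lung), CT26.WT and MC38 (colon), 4T1 and EMT6 (breast), MBT2 (bladder) and B16-F10 (melanoma). The hosts were BALB/cAnNCrlCrlj for BNL 1ME A.7R.1, RAG, Renca, CT26.WT, EMT6 and 4T1, C57BL/6NCrl for MC38 and B16-F10, C57BL/6JCrl for LL/2, C3H/HeNCrl for MBT2, DBA/2NCrl for KLN205 and C57L/J for Hepa 1-6, and the methods give male hosts for both liver models and females for the rest. Each model is 1 cell line, so a difference between models is a difference between lines, hosts and sites of origin together. Values were TPM, which divide reads by transcript length and scale each tumor to the same total, and the sequencing depth behind them is unknown.

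In healthy cells the p53 protein, encoded by Trp53, is held low by the ubiquitin ligase Mdm2, whose gene is itself a p53 target. When DNA is damaged or an oncogene is active, p53 accumulates and raises Cdkn1a (p21, which blocks cyclin-dependent kinases), Ccng1 (cyclin G1, which feeds back on p53), the pro-apoptotic genes Bbc3 (Puma) and Bax, the stress cytokine Gdf15 and Trp53inp1, a co-regulator of the p53 response. The Cdkn2 locus encodes brakes on the cell cycle: Cdkn2a gives p16Ink4a, an inhibitor of Cdk4 and Cdk6, and from another first exon p19Arf, an inhibitor of Mdm2, while its neighbour Cdkn2b gives p15Ink4b. Tumor lines often carry a loss of this locus or a mutation of Trp53, and a mutant Trp53 can still be transcribed.

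Several facts of the tumors bear on the values. Protein-coding genes took between 27.5% and 66.6% of a tumor's TPM, with a median of 51.4%, and a shift in this share moves every TPM value of the tumor. The lowest share was in 4T1 LEN replicate 4, whose correlation with its own group was 0.962 across 13268 genes, against 0.979 for the next lowest tumor and a median of 0.992. The 3 BNL 1ME A.7R.1 Base tumors held Xist at 35.3 to 55.0 TPM and 4 Y-linked genes at no more than 0.04 TPM, whereas the NT and LEN tumors of that model held Xist at no more than 0.55 TPM and the Y-linked genes at 1.89 to 8.17 TPM. The Base tumors of BNL 1ME A.7R.1 thus go against the male hosts given for the model. Most of the tests, counts and correlations over models that use them are also given without this model. The hepatocyte markers Alb, Afp, Apoa1, Ttr and Trf summed to 9.36 to 18.6 TPM in the BNL 1ME A.7R.1 Base tumors, with Ttr at 0, and to 5182 to 5296 TPM in Hepa 1-6 Base tumors. The melanocyte markers summed to 8380 to 8546 TPM in B16-F10 Base tumors, and the epithelial markers to only 4.34 to 5.93 TPM in MBT2 Base tumors.

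The promoters of the members whose levels carry the results are shown first, each running from 250 bases before to 50 after a RefSeq transcript start (RefSeq, GRCm38.p6). Of the 10 members, 9 had such a window. Capitals mark matches to the p53 decamer, or to the longer element of 20 bases made of adjoining decamers with at most 3 mismatches, in Cdkn1a, Mdm2 and Ccng1, and the GC box GGGCGG on the printed strand in Cdkn2a and Cdkn2b.
Cdkn1a, upstream start, chr17:29090729-29091028, plus strand: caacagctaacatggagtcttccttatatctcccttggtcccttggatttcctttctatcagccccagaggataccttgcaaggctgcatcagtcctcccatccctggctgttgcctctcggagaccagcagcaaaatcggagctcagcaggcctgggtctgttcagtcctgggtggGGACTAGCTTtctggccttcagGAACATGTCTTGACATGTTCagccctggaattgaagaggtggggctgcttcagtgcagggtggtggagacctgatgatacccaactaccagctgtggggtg
Mdm2, chr10:117710709-117711008, minus strand: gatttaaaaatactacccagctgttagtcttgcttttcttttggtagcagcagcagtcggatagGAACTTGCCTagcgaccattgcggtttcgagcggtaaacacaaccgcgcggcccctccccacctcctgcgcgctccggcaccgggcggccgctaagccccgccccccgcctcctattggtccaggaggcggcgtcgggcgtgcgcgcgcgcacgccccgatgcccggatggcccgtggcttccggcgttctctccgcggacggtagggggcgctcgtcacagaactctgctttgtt
Ccng1, chr11:40755237-40755536, minus strand: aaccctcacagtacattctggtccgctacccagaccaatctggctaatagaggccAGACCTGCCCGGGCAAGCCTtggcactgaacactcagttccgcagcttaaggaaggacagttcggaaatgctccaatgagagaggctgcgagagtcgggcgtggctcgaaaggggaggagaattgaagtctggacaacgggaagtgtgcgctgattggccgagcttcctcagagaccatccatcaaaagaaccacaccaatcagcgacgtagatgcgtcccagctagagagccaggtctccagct
Cdkn2a, upstream start, chr4:89294570-89294869, minus strand: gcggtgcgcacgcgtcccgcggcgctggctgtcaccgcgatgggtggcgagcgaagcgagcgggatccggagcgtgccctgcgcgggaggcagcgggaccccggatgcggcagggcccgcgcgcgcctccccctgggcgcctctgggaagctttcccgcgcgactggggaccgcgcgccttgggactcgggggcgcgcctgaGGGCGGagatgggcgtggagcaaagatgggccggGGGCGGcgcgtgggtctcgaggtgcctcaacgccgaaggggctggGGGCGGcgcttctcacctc
Cdkn2a, downstream start, chr4:89282143-89282442, minus strand: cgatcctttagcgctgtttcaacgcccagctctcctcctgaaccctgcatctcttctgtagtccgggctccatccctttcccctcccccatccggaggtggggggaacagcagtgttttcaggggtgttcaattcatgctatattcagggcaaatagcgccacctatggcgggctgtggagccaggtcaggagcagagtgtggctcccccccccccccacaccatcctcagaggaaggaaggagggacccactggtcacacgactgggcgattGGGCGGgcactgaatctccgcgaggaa
Cdkn2b, chr4:89310983-89311282, minus strand: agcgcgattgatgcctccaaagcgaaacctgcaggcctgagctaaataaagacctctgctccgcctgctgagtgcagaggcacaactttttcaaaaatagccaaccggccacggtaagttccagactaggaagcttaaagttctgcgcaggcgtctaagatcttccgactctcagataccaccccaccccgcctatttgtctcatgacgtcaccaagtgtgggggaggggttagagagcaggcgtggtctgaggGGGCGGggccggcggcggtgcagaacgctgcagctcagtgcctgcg

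Both strands were searched in 32851 promoter windows of this length, and 8.36% of them held the decamer, 1.38% the longer element and 35.7% the GC box. The upstream Cdkn1a window held the longer element with 1 mismatch at position -51 and a further decamer at -73, counted from the transcript start. The Ccng1 window held the longer element with 1 mismatch at -195, the Trp53 window with 3 mismatches at -75 and a Bbc3 window with 3 mismatches at -97. Mdm2 and Bax held a lone decamer, at -186 and -201. The Gdf15 windows, the downstream Cdkn1a window and the other Bbc3 windows held neither a decamer nor the longer element. The Cdkn2a and Cdkn2b windows held no p53 decamer, and 3, 1 and 1 GC boxes in the order shown above; the upstream Cdkn2a window had 45 CG pairs, against a median of 7 over all windows. These are matches of letters in a short window, and binding was not measured; the p53 element of Mdm2 is known to lie in its first intron, which the window does not reach.

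Trp53 RNA was present in every tumor, and no model lacked it. The gene (chr11:69580359-69591873, plus strand) ran from 13.8 to 130 TPM with a median of 80.1 TPM. Among Base tumors it was highest in MBT2, where the 3 tumors held 118, 124 and 115 TPM, and lowest in 4T1 with 31.1, 33.9 and 32.6 TPM. Renca lay beside 4T1, with 32.8, 46.6 and 43.5 TPM. The tumors of 4T1 and Renca did not reach the range of any other model in Base, while 9 of the 11 neighbouring pairs in the order overlapped. After rescaling the tumors to protein-coding genes or to the upper quartile, BNL 1ME A.7R.1 was highest and Renca lowest among Base tumors. A level of Trp53 RNA says nothing of whether its sequence is intact, and mutations were not measured here.

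Cdkn1a, Mdm2 and Ccng1 are targets of p53, and the products of Mdm2 and Ccng1 also act back on it. They were each highest in KLN205 among Base tumors, and this held under both rescalings. They lie at chr17:29090976-29100727, chr10:117688875-117710758 and chr11:40748552-40755311. The KLN205 Base tumors held Cdkn1a at 127, 136 and 138.5 TPM, while RAG, the lowest, held 15.7, 16.2 and 11.7 TPM. Mdm2 stood at 175, 151 and 172 TPM in KLN205 and at 30.3, 32.3 and 34.8 TPM in 4T1. Ccng1 stood at 78.7, 86.7 and 90.4 TPM in KLN205 and at 13.5, 9.10 and 9.87 TPM in 4T1. For each of these genes the KLN205 tumors lay above every other Base tumor, and Hepa 1-6 came next with means of 85.5, 88.5 and 61.3 TPM. Below these models the order was less sharp, since 9 of 11 neighbouring pairs overlapped for Mdm2, 6 for Ccng1 and 5 for Cdkn1a. The lowest place for Mdm2 passed to MC38 under both rescalings.

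Bax and Bbc3, which act in the apoptotic arm, varied less between models. Bax ran from a Base mean of 31.1 ± 2.69 TPM (SD, n = 3) in Renca to 108 ± 11.3 TPM (SD, n = 3) in B16-F10, and KLN205 was highest after either rescaling. Bbc3 ran from 5.003 TPM in EMT6 to 15.8 TPM in CT26.WT, and 10 of its 11 neighbouring pairs overlapped, B16-F10 being lowest after either rescaling. Trp53inp1 spanned 2.40 TPM in MBT2 to 41.7 TPM in Hepa 1-6, and KLN205 was highest after either rescaling. Gdf15 had a far wider span, from tumors listed at or near 0 to 101, 133 and 106.6 TPM in the RAG Base tumors. The limma F test called a difference between models in Base tumors for all 10 members, the largest adjusted p being 5.9e-07 for Bbc3, but the same test called 93.6% of 17542 genes, and without BNL 1ME A.7R.1 it called all 10 beside 93.5%. The Bax gene overlaps another annotated protein-coding gene on its strand, Gm45808, and Cdkn1a overlaps AC167363.2 on the other strand, so reads may be shared and these levels are uncertain to that extent.

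**Figure D1:**
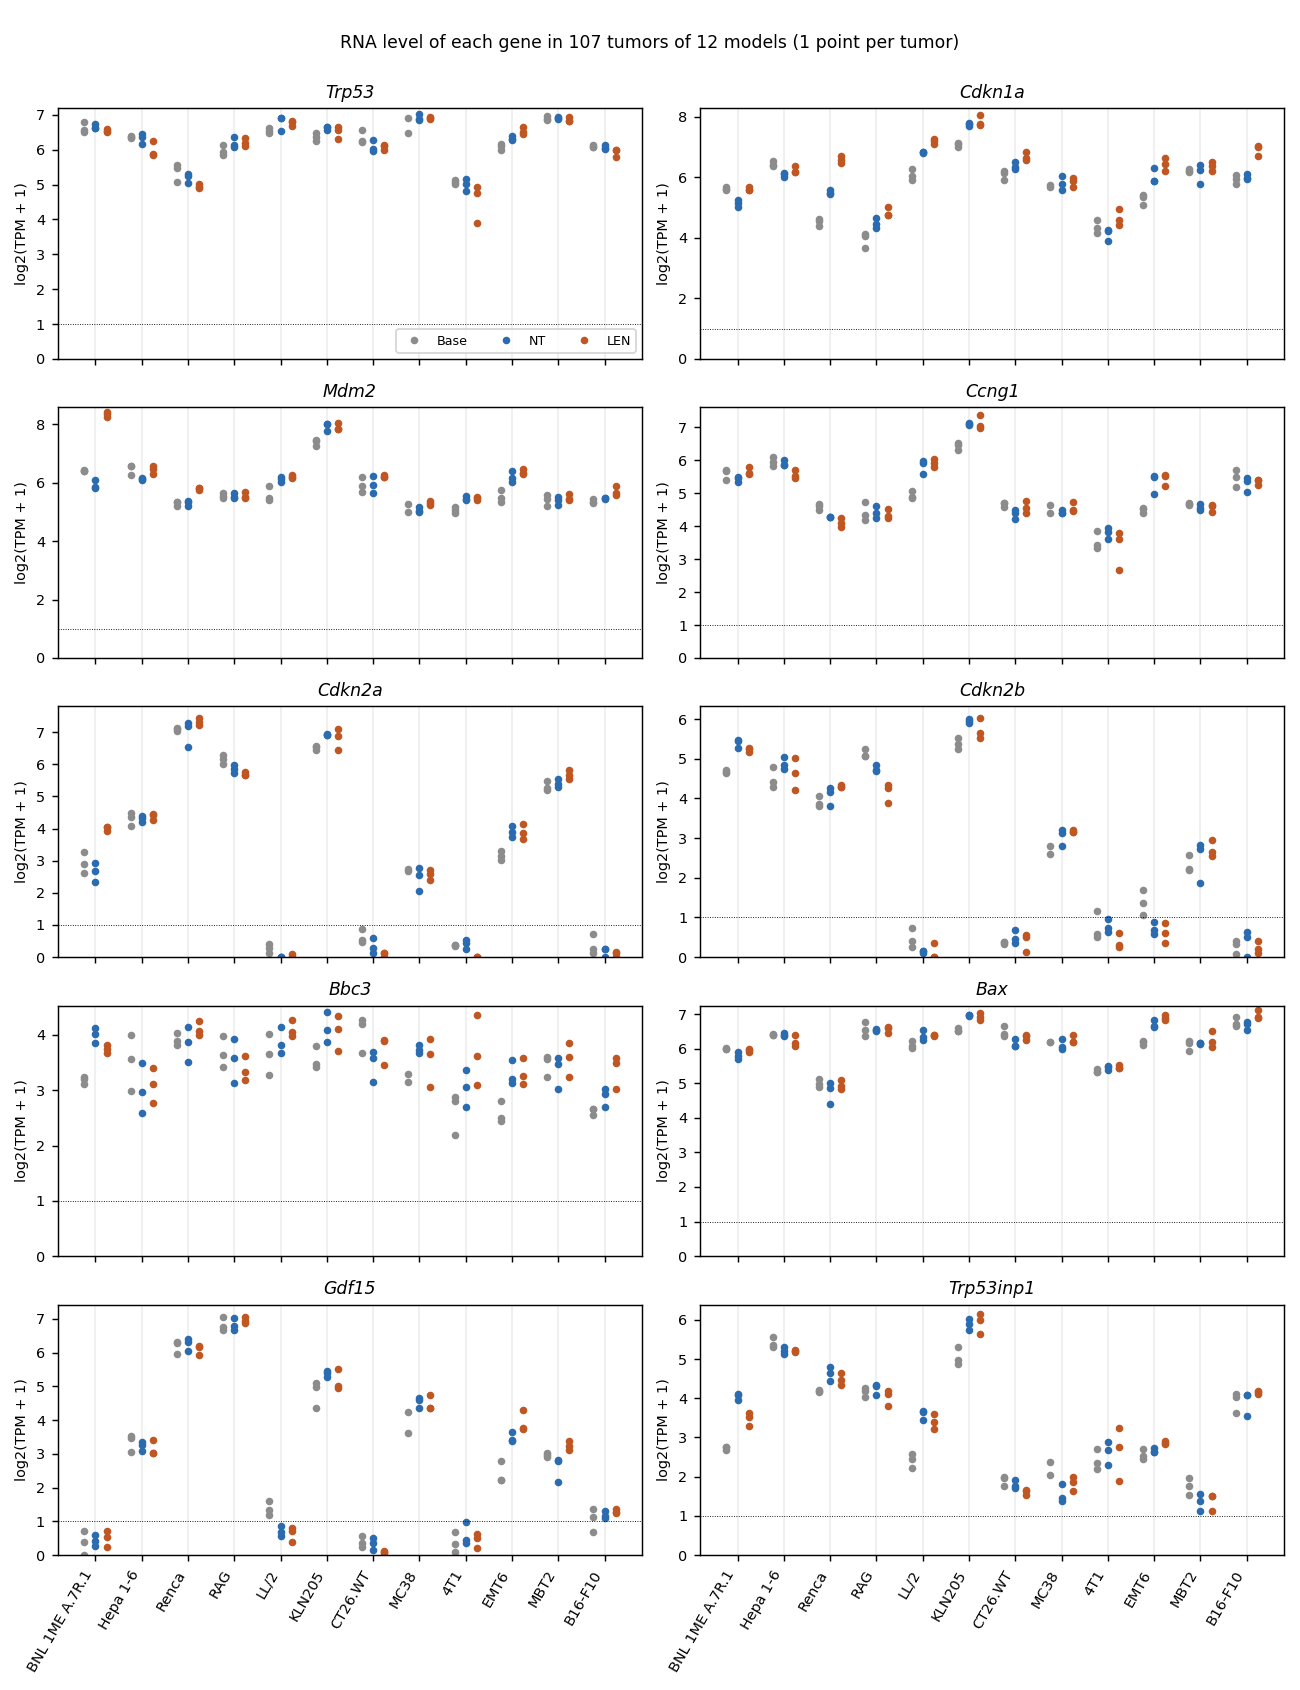
Level of each of the 10 genes in every tumor, on the log2(TPM + 1) scale, by model and group (Base, NT, LEN), with 1 point per tumor and a dotted line at 1 TPM. KLN205 stands highest for Cdkn1a, Mdm2 and Ccng1 in Base and NT tumors, Mdm2 in LEN tumors of BNL 1ME A.7R.1 reaches 308 to 339 TPM, and Cdkn2a, Cdkn2b and Gdf15 lie below the line in several models.

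Cdkn2a (chr4:89274471-89294653, minus strand) was under 1 TPM in every tumor of 4 models: 4T1, CT26.WT, B16-F10 and LL/2. The highest value over the 9 tumors was 0.32 TPM in LL/2, 0.46 TPM in 4T1, 0.65 TPM in B16-F10 and 0.83 TPM in CT26.WT, and 11 tumors in all were listed at 0. In the other models no tumor held less than 3.13 TPM. The top of the order was Renca with 132, 135 and 138 TPM in Base tumors, followed by KLN205 with 91.5, 85.4 and 93.3 TPM and RAG with 63.4, 77.5 and 71.4 TPM. These ranges did not overlap. MBT2 came next at a mean of 39.1 TPM and Hepa 1-6 at 19.0 TPM, and EMT6, BNL 1ME A.7R.1 and MC38 held between 5.16 and 8.92 TPM. The table counts p16Ink4a and p19Arf transcripts as 1 gene, so the levels do not say which of these products was made, and in bulk tumors fewer cells of a type and less RNA per cell cannot be told apart.

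Cdkn2b, which is separated from Cdkn2a by 11.6 kb, was low in the same models and in EMT6. It was under 1 TPM in every tumor of CT26.WT, B16-F10 and LL/2, reached 1.22 TPM at most in 4T1, and in EMT6 ran from 0.28 to 2.24 TPM. EMT6 thus held Cdkn2a RNA at 7.04 to 16.8 TPM in 9 of 9 tumors with little Cdkn2b RNA. KLN205 was highest in Base with 37.2, 40.2 and 45.0 TPM, followed by RAG at 32.5, 37.2 and 32.7 TPM. Their ranges nearly touched, the highest RAG and the lowest KLN205 tumor lying at 37.15 and 37.24 TPM. Renca, which was highest for Cdkn2a, held only 12.9, 13.6 and 15.8 TPM of Cdkn2b. BNL 1ME A.7R.1 showed the opposite order, with Cdkn2b at 24.1 to 25.4 TPM and Cdkn2a at 5.16 to 8.70 TPM in Base tumors.

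The nearest flanking gene on the other side, Mtap, an enzyme of methionine salvage, lies 93.4 kb from Cdkn2a and was measured in every tumor of all models. Its Base mean was 135 ± 5.91 TPM (SD, n = 3) in 4T1, the highest of the models, 79.7 ± 7.66 TPM in B16-F10, 76.9 ± 6.34 TPM in CT26.WT and 40.7 ± 3.19 TPM in LL/2, all models without Cdkn2a RNA. The lowest Mtap mean, 16.4 ± 2.10 TPM (SD, n = 3), was in Renca, the model with the most Cdkn2a RNA. Klhl9, 552.0 kb away on that side, lay between means of 19.0 TPM in EMT6 and 42.6 TPM in B16-F10. Low Cdkn2a and Cdkn2b RNA therefore went with clearly measured RNA of both neighbours in the bulk tumors. Whether tumor or host cells held the neighbours' RNA was not tested, and DNA copy number was not measured.

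**Figure D2:**
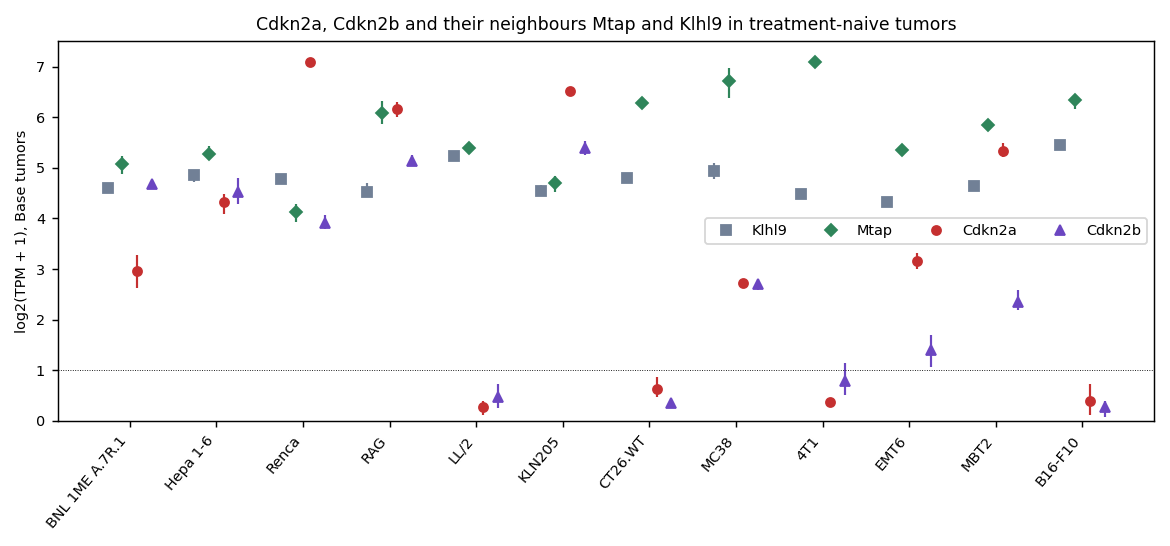
Levels of Cdkn2a, Cdkn2b and their neighbours on chromosome 4 in the Base tumors of each model, on the log2(TPM + 1) scale with points for the mean TPM, bars from the lowest to the highest tumor and a dotted line at 1 TPM. Cdkn2a and Cdkn2b fall to the bottom of the scale in LL/2, CT26.WT, 4T1 and B16-F10, while Mtap and Klhl9 remain well above it in all 12 models.

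Gdf15 was under 1 TPM in every tumor of BNL 1ME A.7R.1, 4T1 and CT26.WT, with highest values of 0.65, 0.99 and 0.47 TPM. LL/2 and B16-F10 held no more than 2.04 and 1.56 TPM. RAG and Renca, high for Cdkn2a, also held the most Gdf15, and CT26.WT and 4T1 held under 1 TPM of both genes in every tumor, whereas BNL 1ME A.7R.1 held Cdkn2a RNA with Gdf15 near 0. Across the 12 Base means, on the log2(TPM + 1) scale, Mdm2 ran with Ccng1 (Pearson r = 0.85 in Base and in NT, n = 12 models). Trp53 RNA ran less closely with its targets, at r = 0.70 and 0.55 for Cdkn1a and 0.34 and 0.25 for Mdm2. Without BNL 1ME A.7R.1 the Base and NT values were 0.84 and 0.86 for Mdm2 with Ccng1, 0.72 and 0.62 for Trp53 with Cdkn1a and 0.29 and 0.25 for Trp53 with Mdm2 (n = 11 models). These are descriptions over model means that share host strains and a scaling. The Base and NT means of a member ran together with r between 0.87 and 0.99 (n = 12 models), except for Bbc3 at 0.51, and without BNL 1ME A.7R.1 between 0.89 and 0.99, Bbc3 being at 0.59, while places in the order changed, EMT6 for example going from the seventh to the second place for Mdm2.

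Among 13274 genes with a mean of at least 1 TPM in Base, those whose Base means were most like Cdkn1a were Fgfbp3 (r = 0.91), Sh3glb2 (0.85) and Phf21b (0.84), with r of 0.64, 0.72 and 0.70 in NT. For Mdm2 they were Fam212b, Igf2 and Nr2c1 (r from 0.87 to 0.89), and for Ccng1 they were Nr2c1, Mdm2 and Nfyb (0.84 to 0.86). For Trp53 the closest were Mrpl43, Denr and Txndc17 (0.84 to 0.88). The closest to Cdkn2a were Recql5, Ugt1a6b and Ugt1a5 (0.87 to 0.89), and those to Cdkn2b were Pmaip1, Ccdc189 and Tmem98 (0.85 to 0.89). Pmaip1 encodes Noxa, itself a target of p53. All were picked as the highest of many r over 12 points, and for Cdkn2a and Cdkn2b the points fall into models with and without the RNA. Without BNL 1ME A.7R.1 the genes named here had r from 0.83 to 0.91 in Base (n = 11 models), and other genes passed several of them, Tmem98 going to place 27 for Cdkn2b and Denr to place 14 for Trp53.

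A list of 36 further p53 target genes was set beside the members. In Base tumors KLN205 was the highest model for 11 of these 36 genes, or 30.6%, against 6.2% of all 17542 genes, and 4T1 was the lowest for 12, or 33.3%, against 11.2%. The median target lay 0.69 above the middle of the 12 models in KLN205 on the log2 scale, against -0.11 for all genes, and in 4T1 it lay at -0.46 against -0.11. In NT tumors the medians were 0.98 in KLN205 and -0.42 in 4T1. Without BNL 1ME A.7R.1 KLN205 was highest for 12 of the 36 genes, beside 6.6% of all genes, and 4T1 lowest for 12, beside 12.3%, with Base medians of 0.70 and -0.52. These counts and medians are on the deposited scale and were not repeated after rescaling. Protein-coding genes took 37.1% to 40.4% of the TPM in 4T1 Base tumors and 39.6% to 42.3% in KLN205 Base tumors. Their median share over all Base tumors was 49.6%. No share of targets here was tested.

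The change from Base to NT compares untreated tumors taken at the starting size with other untreated tumors taken on day 8. Growth cannot be told apart from any difference between these sets in handling or sequencing. Averaged over the 12 models, Cdkn1a rose by 0.25 (SE 0.037, log2 scale, limma adjusted p = 1.7e-06) and Trp53inp1 by 0.23 (SE 0.043, adjusted p = 4.3e-05). Mdm2 rose by 0.11, Ccng1 by 0.12 and Bbc3 by 0.18, with adjusted p of 0.017, 0.015 and 0.037. No member fell. The count of 5 members of 10 stands against 17.0% of 17428 genes called higher and 11.5% called lower. Fold changes are on the log2(TPM + 1) scale, which understates changes of low genes, and p-values measure the spread between tumors of a model. The calls of Mdm2, Ccng1 and Bbc3 were lost under both rescalings, at 0.06, 0.07 and 0.13 under the upper-quartile and 0.05, 0.06 and 0.13 under the protein-coding scale. The rescalings left Cdkn1a at 0.19 and 0.19 and Trp53inp1 at 0.18 and 0.17 under the upper-quartile and protein-coding scale. Without BNL 1ME A.7R.1, 4 members were called, Bbc3 being lost at 0.12, and the others stood at 0.31 for Cdkn1a, 0.16 for Mdm2, 0.15 for Ccng1 and 0.13 for Trp53inp1. Over all genes the split of 2971 higher and 2002 lower became 1419 and 3524 under the upper-quartile scale and 1193 and 4458 under the protein-coding scale.

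The models did not move alike. The limma F test called a difference of the NT to Base change between models for all 10 members, beside 66.5% of all genes, and without BNL 1ME A.7R.1 for all 10 beside 60%. In Renca the Base tumors held Cdkn1a at 19.7, 22.3 and 23.4 TPM and the NT tumors at 46.6, 43.0 and 42.4 TPM, a ratio of means of 2.02. The fibroblast markers of the Renca tumors summed to 1560 to 2411 TPM in Base and 357 to 742 TPM in NT. The endothelial markers summed to 85.8 to 113 and 44.1 to 60.2 TPM and the leukocyte markers to 611.3 to 681.8 and 432.3 to 502.7 TPM. The part of these markers' cells in the Cdkn1a values was not tested. In LL/2 the Base tumors held 59.4, 76.6 and 65.0 TPM and the NT tumors 110, 112 and 113 TPM. In Hepa 1-6 the order was turned, with 84.0, 80.6 and 92.0 TPM in Base and 63.3, 67.9 and 68.5 TPM in NT. The leukocyte markers of these Hepa 1-6 tumors summed to 831 to 1252 TPM in Base and 363 to 753 TPM in NT. The epithelial markers summed to 1172 to 1355 and 863 to 988 TPM and the cycling markers to 604.5 to 618.5 and 475.6 to 597.4 TPM, their part likewise not tested. The Base and NT ranges of Cdkn1a overlapped in none of these models. Over the models the NT tumors lay wholly above the Base tumors for Cdkn1a in 6 and wholly below in 2, where 15.8% of all pairs of gene and model lay wholly above and 13.7% wholly below. Without BNL 1ME A.7R.1 these were 6 and 1 of 11 models, beside 14.1% of pairs in each direction. With all models they were 5 and 2 on the protein-coding scale and 5 and 3 at the upper quartile, where the share over all pairs was not computed.

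KLN205, EMT6 and LL/2 held most of the upward shifts. In KLN205 the NT tumors lay wholly above the Base tumors for 10 of 10 members, against 43.2% of all genes in that model. Mdm2 went from 175, 151 and 172 to 217, 259 and 256 TPM there, and Trp53inp1 from 30.3, 28.1 and 38.6 to 52.8, 58.4 and 64.5 TPM. In EMT6 this was so for 8 of 10 members against 26.3% of genes. Cdkn2a went from 7.04, 8.92 and 7.88 to 13.9, 12.5 and 16.04 TPM in EMT6, and Cdkn2b lay wholly below. The protein-coding share of the TPM moved with these changes, from 39.6% to 42.3% in Base to 50.7% to 52.7% in NT for KLN205 and from 43.5% to 45.9% to 57.2% to 61.0% for EMT6. After rescaling to protein-coding genes 4 members lay wholly above in KLN205, against 8.96% of genes, and 5 in EMT6, against 7.13%. At the upper quartile it was 6 in each, against 10.0% of genes in KLN205 and 10.8% in EMT6. The epithelial markers summed to 1936 to 2147 TPM in Base and 2674 to 2866 TPM in NT for KLN205 and to 189 to 231 and 282 to 352 TPM for EMT6, and the cycling markers to 353 to 377 and 412 to 429 TPM for KLN205 and to 513 to 540 and 593 to 771 TPM for EMT6, and their part was not tested.

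In LL/2 the NT tumors lay wholly above for Cdkn1a, Mdm2, Ccng1, Bax and Trp53inp1, 5 of 10 members against 18.6% of genes, and 6 members against 21.7% and 5 against 17.7% did so under the protein-coding and upper-quartile scales. Here the protein-coding share was 49.2% to 54.4% in Base and 50% to 51.3% in NT. Ccng1 went from 27.9, 28.5 and 32.2 to 61.8, 47.1 and 59.3 TPM, and Trp53inp1 from 3.69, 4.5 and 4.94 to 11.5, 9.95 and 11.7 TPM. In the same LL/2 tumors the epithelial markers summed to 36.9 to 57.2 TPM in Base and 170.4 to 216 TPM in NT, the leukocyte markers to 404 to 458 and 233 to 356 TPM and the endothelial markers to 36.9 to 52.6 and 25.2 to 28.6 TPM, and their part was not tested. Gdf15 lay wholly below, at 1.51, 2.04 and 1.29 TPM in Base and 0.49, 0.60 and 0.81 TPM in NT. In BNL 1ME A.7R.1 Cdkn1a, Mdm2 and Bax lay wholly below Base and Cdkn2b, Bbc3 and Trp53inp1 wholly above, with Trp53inp1 at 5.72, 5.76 and 5.40 TPM in Base and 14.5, 16.3 and 15.9 TPM in NT. Over all genes of this model 33.8% lay wholly above and 9.48% wholly below. After rescaling to protein-coding genes or the upper quartile the same 3 members lay wholly above, beside 16.5% or 18.8% of genes, and 5 wholly below, Trp53 and Ccng1 being added, beside 22.7% or 20.2%. The protein-coding share was 45.3% to 49.0% in Base and 54.3% to 57.4% in NT tumors of this model. The fibroblast markers summed to 4427 to 4690 TPM in Base and 8180 to 9242 TPM in NT, the leukocyte markers to 219.7 to 357 and 422 to 432 TPM and the epithelial markers to 127.5 to 166 and 15.6 to 37.2 TPM, and their part was not tested. Its Base tumors are those with Xist RNA and hardly any Y-linked RNA.

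**Figure D3:**
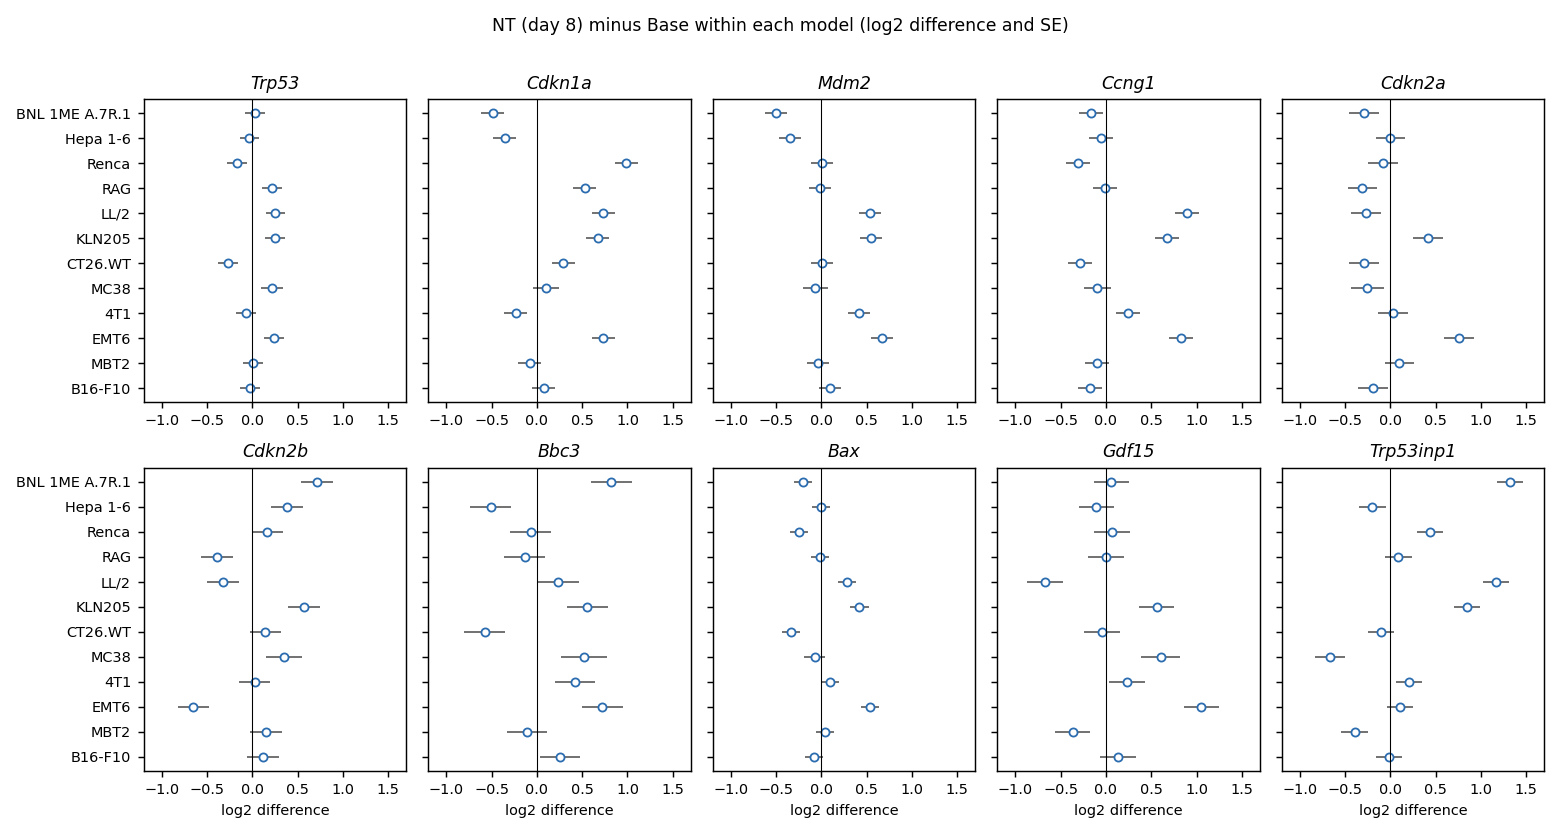
Difference between NT and Base tumors of each member in each of the 12 models, on the log2(TPM + 1) scale, with bars for the SE. Cdkn1a is higher in NT in 8 of 12 models and lower in the others, Renca and LL/2 lying on the high side and Hepa 1-6 and BNL 1ME A.7R.1 on the low side.

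Of the 36 listed p53 targets, 13 rose and 1 fell from Base to NT, or 36.1% and 2.78% beside 17.0% and 11.5% of all genes, with a list median of 0.051 beside 0.013 for all genes. These counts became 7 and 6 at the upper quartile, where 8.10% of all genes rose and 20.1% fell, 5 and 6 on the protein-coding scale (5.91% and 22.1%) and 7 and 3 without BNL 1ME A.7R.1 (12.5% and 12.3%). Sesn2 (0.24) and Tnfrsf10b (0.20), a death receptor, were among those that rose and Perp (-0.19) fell, the last call being lost without BNL 1ME A.7R.1 (-0.12). Of 15 regulators 4 rose, Trp53bp1 (0.15), Ppm1d (0.13) and Rfwd2 (0.12) showing the largest changes, and 1 at the upper quartile, 0 on the protein-coding scale and 3 without BNL 1ME A.7R.1. Among 17 CDK inhibitors and Rb axis genes only Cdkn1b (p27, 0.19) passed the test, and among 13 BCL2 family genes only Pmaip1 (0.15), which was lost on the protein-coding scale and without BNL 1ME A.7R.1. Under the upper-quartile scale 4 genes of each of these lists fell. On the protein-coding scale 6 of 18 CDK inhibitors and Rb axis genes and 5 of 13 BCL2 family genes fell. Of 6 genes beside the Cdkn2 locus 5 rose, with Focad (0.19), Mllt3 (0.13) and Mtap (0.11) in front, but 2 under either rescaling or without BNL 1ME A.7R.1. Of 6 integrated stress response genes, a further input to Gdf15, 3 rose, 1 under either rescaling and 2 without that model. The host cells moved too: 4 of 5 endothelial and 5 of 10 leukocyte markers fell, as did 2 of 6 fibroblast markers. Without BNL 1ME A.7R.1 6 leukocyte and 6 fibroblast markers fell. Of the cycling markers 0 of 10 passed the test (1 fell on the protein-coding scale). Their part in the members' changes was not tested.

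LEN and NT tumors were both taken on day 8, and their difference asks how the members responded to the inhibitor. This comparison uses the same NT tumors as the one with Base. Averaged over the models Cdkn1a rose by 0.41 (SE 0.038, log2 scale, limma adjusted p = 2.0e-12) and was higher in 12 of 12 models, or 10 at the upper quartile, where MC38 (-0.01) and Hepa 1-6 (-0.005) lay near 0. Mdm2 rose by 0.36 (SE 0.028, adjusted p = 3.7e-15), higher in 10 of 12, and by 0.18 without BNL 1ME A.7R.1, where it still passed the test. Bax rose by 0.09 (adjusted p = 0.019, higher in 10 of 12, or 8 at the upper quartile) and Trp53 fell by 0.11 (adjusted p = 0.034, higher in 2 of 12). Thus 3 of 10 members were higher and 1 lower, where 13.7% of 17351 genes were called higher and 9.87% lower. Over all genes the split was 2371 higher and 1712 lower, and 2279 and 3163 under the upper-quartile scale or 2652 and 2889 under the protein-coding scale. The mean differences that did not pass were 0.10 for Cdkn2a, -0.11 for Cdkn2b, 0.13 for Bbc3, 0.03 for Gdf15, -0.01 for Ccng1 and -0.04 for Trp53inp1. The Bax and Trp53 calls were lost without BNL 1ME A.7R.1 and without B16-F10 with their sizes little moved, Bax at 0.08 and 0.07 and Trp53 at -0.11 and -0.10, while those of Cdkn1a and Mdm2 held under every alternative run.

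For Cdkn1a the LEN and NT tumors were apart in more models than for any other member on the deposited and protein-coding scales, while at the upper quartile Trp53inp1 was apart in 6 models (2 above, 4 below). In Renca the NT tumors held 46.6, 43.0 and 42.4 TPM and the LEN tumors 88.1, 103 and 93.1 TPM, a ratio of means of 2.15. In B16-F10 the values were 68.0, 61.1 and 60.2 TPM in NT and 103, 128 and 127 TPM in LEN, a ratio of 1.89. The leukocyte markers summed to 38.8 to 70.7 TPM in NT and 199.9 to 250.2 TPM in LEN tumors of B16-F10, and the fibroblast markers to 119.7 to 152 and 447.5 to 597.5 TPM. The endothelial markers in Renca summed to 44.1 to 60.2 TPM in NT and 12.9 to 16.1 TPM in LEN, and the part of these cells in the Cdkn1a values was not tested. LL/2, where Cdkn1a had already risen from Base, held 110, 112 and 113 TPM in NT and 136, 152 and 146 TPM in LEN. In each of these models every LEN tumor lay above every NT tumor. This was so in 8 of 12 models, and in none were the LEN tumors wholly below, where 12.7% of pairs of gene and model lay wholly above and 10.6% wholly below. The count was 8 after rescaling to protein-coding genes, beside 12.2% of pairs, 5 at the upper quartile, beside 11.5%, and 7 of 11 without BNL 1ME A.7R.1, beside 10.4%. KLN205, the model with the most Cdkn1a, showed overlap, with 207, 219 and 214 TPM in NT and 264, 208 and 215 TPM in LEN.

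The difference between LEN and NT varied between models for Cdkn1a, Mdm2, Cdkn2a and Gdf15 by the limma F test, 4 of 10 members beside 35.3% of all genes. The adjusted p was 1.2e-04 for Cdkn1a, 3.4e-20 for Mdm2, 4.9e-07 for Cdkn2a and 0.023 for Gdf15. The count was 5 beside 41.2% of genes on the protein-coding scale, Gdf15 being lost and Ccng1 and Trp53inp1 added. The count was 9 beside 45.7% of genes at the upper quartile, and 3 beside 20% without BNL 1ME A.7R.1, Cdkn2a being lost. Leaving out 4T1 LEN replicate 2 raised it to 7 beside 49.9% of genes, and leaving out 4T1 LEN replicate 4, the tumor with the lowest protein-coding share, to 5 beside 44.3%. That tumor held Trp53 at 13.8 TPM and Ccng1 at 5.40 TPM, the lowest values of both genes in the series.

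**Figure D4:**
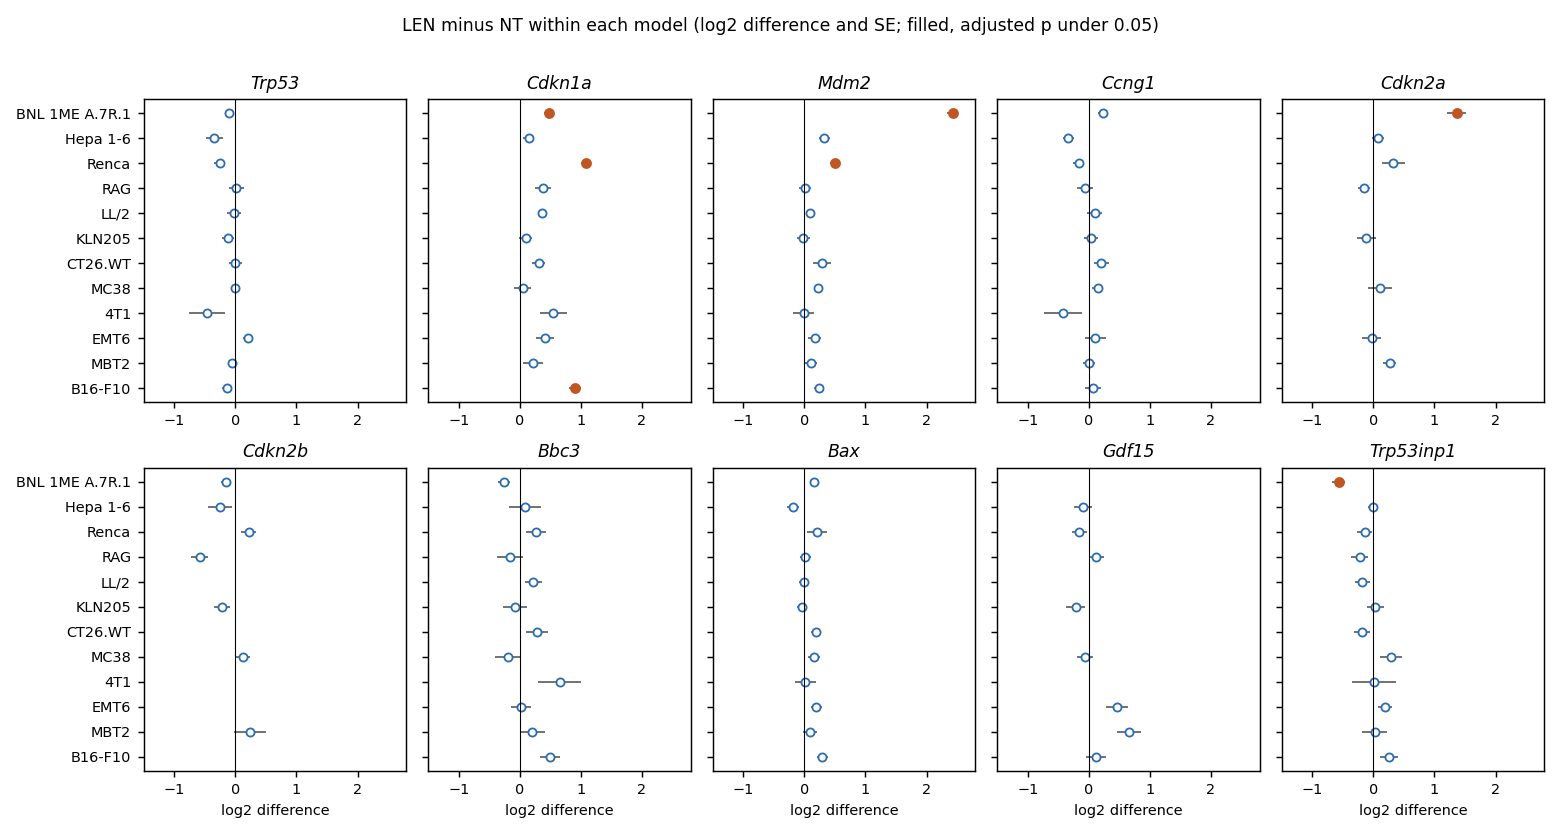
Difference between LEN and NT tumors of each member in each of the 12 models, on the log2(TPM + 1) scale, with bars for the SE, filled points for an adjusted p under 0.05 and no point where a gene was too low to be tested. Cdkn1a lies above 0 in 12 of 12 models on this scale (10 at the upper quartile), and the point for Mdm2 in BNL 1ME A.7R.1, at 2.43, stands far from the other models.

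Tests within a model used 3 tumors against 3 and called 7 of 120 pairs of member and model, 13 of which were too low to be tested, with 27 having an unadjusted p under 0.05. Of these calls 4 were in BNL 1ME A.7R.1, where 31.5% of all genes were called, 2 in Renca (12.1% of genes) and 1 in B16-F10 (11% of genes). The other models gave no call for a member. Their share of all genes called was 0.916% in EMT6, 0.228% in KLN205, 0.148% in LL/2, 0.0664% in Hepa 1-6, 0.0326% in RAG, 0.0314% in MC38, 0.0195% in MBT2, 0.0127% in 4T1 and 0.00659% in CT26.WT. In Renca Cdkn1a rose by 1.09 (SE 0.086, adjusted p = 6.1e-04) and Mdm2 by 0.49 (SE 0.078, adjusted p = 0.0088), with Mdm2 at 40.3, 35.8 and 39.7 TPM in NT and 53.2, 55.3 and 55.6 TPM in LEN. In B16-F10 Cdkn1a rose by 0.90 (SE 0.10, adjusted p = 0.0040). A fit of all 72 NT and LEN tumors together called 12 pairs, beside 7.05% of all pairs of gene and model, adding Trp53, Cdkn1a and Ccng1 in 4T1, Mdm2 in Hepa 1-6 and Gdf15 in MBT2. In 4T1 it called 18.7% of genes, and without 4T1 LEN replicate 4 Trp53 went from -0.46 to -0.14 and Ccng1 from -0.43 to -0.09, both calls being lost, while Cdkn1a held at 0.58, beside only 2.31% of genes. Without 4T1 LEN replicate 2 Trp53 stood at -0.67, Ccng1 at -0.64 and Cdkn1a at 0.66, beside 36.3% of genes.

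In BNL 1ME A.7R.1 Mdm2 stood at 67.1, 56.5 and 55.0 TPM in NT tumors and at 339, 324 and 308 TPM in LEN tumors. The lowest LEN tumor thus lay far above the highest NT tumor, the difference being 2.43 (SE 0.086, limma adjusted p = 1.5e-05), a ratio of 5.44. The study's methods describe random assignment of tumor-bearing mice to treatment groups. They do not say whether the sequenced tumors came from those mice. Whether the NT and LEN tumors of this model differed before dosing was not tested. Cdkn2a rose by 1.36 (SE 0.16, adjusted p = 0.0011), from 4.01, 6.60 and 5.43 TPM to 14.3, 15.5 and 15.5 TPM. Cdkn1a rose by 0.47 (adjusted p = 0.0040), from 36.5, 34.6 and 31.5 TPM to 46.7, 49.99 and 46.3 TPM, near the 46.5 to 49.96 TPM of the Base tumors. Trp53inp1 fell by 0.57 (adjusted p = 0.0078), from 14.5, 16.3 and 15.9 TPM to 10.6, 8.85 and 11.3 TPM. All of these groups were apart, also after both rescalings. The protein-coding share was 54.3% to 57.4% in NT and 60.2% to 61.9% in LEN, and on the protein-coding and upper-quartile scales the differences were 2.30 and 2.22 for Mdm2, 1.30 and 1.17 for Cdkn2a, 0.34 and 0.27 for Cdkn1a and -0.71 and -0.75 for Trp53inp1. The epithelial markers summed to 15.6 to 37.2 TPM in NT, 833 to 993 TPM in LEN and 128 to 166 TPM in Base tumors of this model. The hepatocyte markers summed to 37.5 to 44.9 TPM in NT and 85.2 to 109 TPM in LEN. The endothelial markers summed to 102.6 to 120.1 TPM in NT and 37.52 to 44.15 TPM in LEN, and the fibroblast markers to 8180 to 9242 and 6631 to 7571 TPM. The leukocyte markers summed to 422.5 to 431.6 and 461.5 to 536.2 TPM and the cycling markers to 589.8 to 610.4 and 532.4 to 550.1 TPM. The part of any of these in the members' changes was not tested.

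Mdm2 was not alone in being higher in these LEN tumors. Along chromosome 10, 16 neighbouring protein-coding genes with a mean of at least 5 TPM, from Tspan8 to Cand1 (chr10:115816832-119240055, GRCm38, 3.42 Mb), held 14 genes with a difference of at least 1 on the log2 scale, and for 14 of 14 every LEN tumor lay above every NT tumor. This stretch was picked after its values were seen and is given as a description. The ratio of means ran from 3.3 for Nup107 to 39.7 for Tspan8, with a median of 5.1. Besides Mdm2 the stretch held Yeats4 at 28.5 TPM in NT and 153 TPM in LEN, Frs2 at 29.1 and 121 TPM, Rap1b at 76.7 and 406 TPM and Cand1 at 90.2 and 443 TPM. The exceptions were Ptprb (-0.24), a phosphatase of endothelial cells, and Lyz2 (-0.17), the lysozyme of myeloid cells.

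The edges were sharp. The 20 flanking genes, 10 on each side, lay between -0.25 and 0.44 on the log2 scale, Zfc3h1 on one edge at 0.18 and Helb on the further edge at 0.18. The genes of the stretch had a median difference between LEN and NT of -0.22 to 0.07 in the other 11 models. In BNL 1ME A.7R.1 their median from Base to NT was -0.34. Of 18 windows of 9 neighbouring genes with a median difference above 1 in this model, 15 were on chromosome 10, while the highest, with a median of 3.22, was on chromosome 3. Such windows were not particular to this model, since B16-F10 held 32 (the highest at 2.29), EMT6 13, CT26.WT 5 and Hepa 1-6 4, none of them on chromosome 10. Cdkn2a showed no such neighbours, its flanking genes Mtap and Klhl9 differing by -0.05 each. DNA copy number was not measured.

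**Figure D5:**
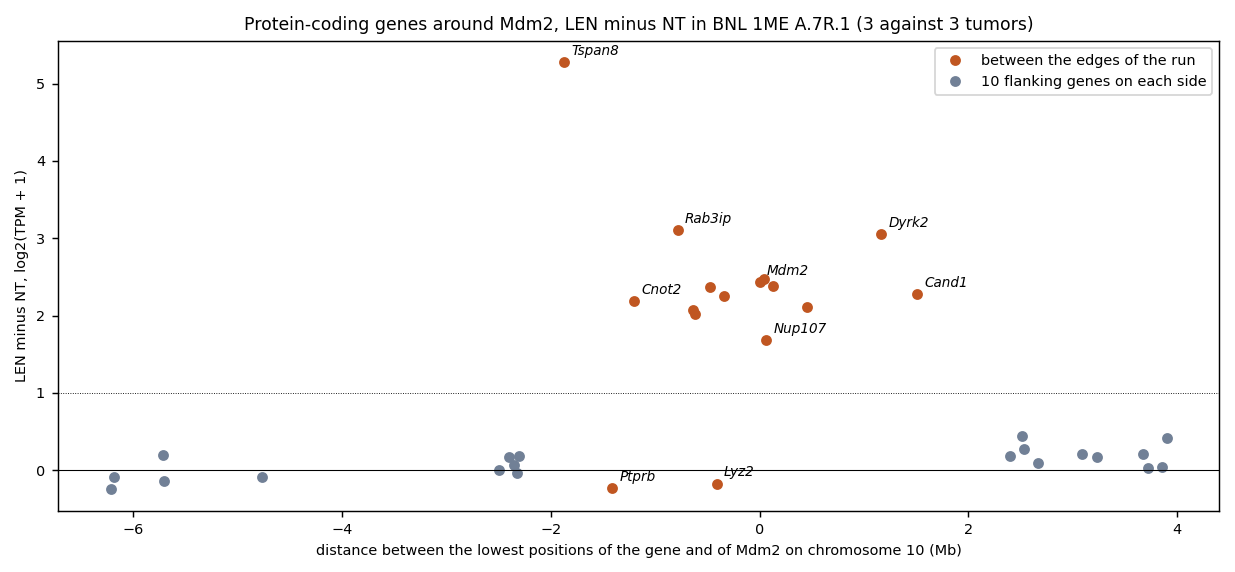
Difference between LEN and NT tumors of BNL 1ME A.7R.1 for protein-coding genes along chromosome 10, against distance in Mb between the lowest position of each gene and that of Mdm2, on the log2(TPM + 1) scale. Within the stretch 14 of 16 genes lie above 1, and the 20 flanking genes lie between -0.25 and 0.44.

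For the other members the LEN and NT tumors were apart in fewer models. In EMT6 Gdf15 held 11.6, 9.34 and 9.60 TPM in NT and 18.7, 12.3 and 12.7 TPM in LEN, and in MBT2 it held 6.09, 3.53 and 5.87 and then 9.54, 8.35 and 7.74 TPM, the groups being apart in both, though in EMT6 they overlapped after either rescaling. In RAG Cdkn2b held 25.0, 25.1 and 27.4 TPM in NT and 13.7, 18.3 and 19.1 TPM in LEN, again apart. In Renca Cdkn2b lay the other way, at 17.02, 13.03 and 18.04 TPM in NT and 19.1, 18.4 and 18.5 TPM in LEN, wholly above on all 3 scales by 0.22, 0.27 and 0.29. Cdkn2a in MBT2 held 38.6, 41.2 and 45.6 TPM in NT and 55.96, 49.8 and 46.1 TPM in LEN, and Ccng1 in Hepa 1-6 held 57, 62.8 and 56.5 and then 45.1, 43.5 and 50.6 TPM, the first wholly above and the second wholly below on all 3 scales. Trp53 lay wholly below NT in 3 models (B16-F10, Renca and BNL 1ME A.7R.1) and wholly above in EMT6, beside the 10.6% of pairs below and 12.7% above. The EMT6 tumors held 76.8, 78.2 and 83.4 TPM in NT and 98.7, 90.5 and 86.2 TPM in LEN and overlapped at the upper quartile. In Hepa 1-6 Trp53 lay wholly below NT under both rescalings, at -0.41 on the protein-coding and -0.49 on the upper-quartile scale, which made 4 models below. None of these pairs of Gdf15, Cdkn2a, Cdkn2b, Ccng1 and Trp53 passed the test within its model. Trp53inp1 was apart in 4 models on the deposited scale, wholly above in EMT6 (0.20) and B16-F10 (0.25) and wholly below in BNL 1ME A.7R.1 (-0.57) and CT26.WT (-0.18), and of these only BNL 1ME A.7R.1 passed the test within its model. On the protein-coding scale EMT6 and B16-F10 overlapped and RAG (-0.27) lay wholly below. In B16-F10 Bbc3 (0.49) and Bax (0.29) also lay wholly above, Bbc3 overlapping on the protein-coding scale.

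Of the 36 listed p53 targets, 9 rose and 7 fell with LEN on the mean over models, or 25.0% and 19.4% beside 13.7% and 9.87% of all genes, with a list median of 0.023 beside -0.002 for all genes. Without BNL 1ME A.7R.1 4 rose and 4 fell, beside 8.36% and 10.0% of all genes. At the upper quartile 9 rose and 9 fell, beside 13.2% and 18.3%, and on the protein-coding scale 10 and 8, beside 13.2% and 14.4%. Perp, a membrane protein of the apoptotic response, rose by 0.54, a call that was lost without BNL 1ME A.7R.1 (0.33), and Phlda3, an inhibitor of Akt, by 0.33, while Sesn1, a stress-induced regulator of mTORC1, fell by 0.47. Of 15 regulators Rfwd2 rose (0.10) and Chek2, a checkpoint kinase, fell (-0.26), while 3 fell at the upper quartile and 2 on the protein-coding scale. Among 17 CDK inhibitors and Rb axis genes 2 rose and 4 fell (3 and 6 at the upper quartile, 3 and 5 on the protein-coding scale), the largest changes being Ccne2 (-0.22), Cdkn2c (-0.20) and E2f3 (-0.17), the last of which was lost without BNL 1ME A.7R.1 (-0.17). Among 13 BCL2 family genes 4 rose and 1 fell, led by Bik (-0.36), Bcl2l1 (0.30) and Mcl1 (0.21). Of 6 genes beside the Cdkn2 locus 1 rose and 2 fell, Hacd4 changing most (-0.41), ahead of Mllt3 (0.15) and Focad (-0.15). Of 6 integrated stress response genes 4 rose, with Trib3 (0.23), Atf3 (0.22) and Ddit3 (0.19) in front, but without BNL 1ME A.7R.1 only Ddit3 passed (0.19).

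Proliferation and stroma moved in the same tumors. Of 10 cycling cell markers 9 fell, led by Mki67 (-0.42), Ccna2 (-0.41) and Ccnb1 (-0.39), and their summed level ran from 405 to 1183 TPM in NT and from 212 to 983 TPM in LEN tumors. All 5 endothelial markers fell, led by Cdh5 (-1.17), from a sum of 24.4 to 120 TPM in NT to 10.9 to 44.8 TPM in LEN. Of 10 leukocyte markers 3 rose and 2 fell, with S100a8 (0.73), Cd3e (0.47) and Csf1r (-0.45) changing most. Of 6 fibroblast markers 1 rose and 2 fell, and 4 of 6 epithelial markers rose, 1 without BNL 1ME A.7R.1. Every cycling, endothelial, leukocyte and fibroblast marker was above 0 in each of the 36 groups, whereas the epithelial keratins Krt5 or Krt14 were at 0 in all tumors of some NT groups, among them BNL 1ME A.7R.1 and LL/2. The part of these cells in the changes of Cdkn1a, Mdm2, Bax and Trp53 was not tested.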

How the data were processed

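RNA had been depleted of ribosomal RNA and sequenced on NovaSeq or NextSeq instruments, and which tumor ran on which is not given in the sources used here. Per the authors' methods and processing notes, reads were trimmed with Trimmomatic 0.36, aligned to mm10 (GRCm38, Ensembl 88) with STAR 2.5.2b and turned into TPM per gene with RSEM 1.2.31. The deposited TPM values have 2 decimals and keep no read depth, so the precision that depth gives is unknown and errors are the spread between tumors. Groups came from the sample titles. The members and gene lists were chosen with earlier results of these data known.

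From the deposited TPM, log2(TPM + 1) of genes with a mean of at least 1 TPM was fitted with limma 3.58.1 (R 4.3.3, mean-variance trend), with Benjamini-Hochberg adjustment over all genes tested and a threshold of 0.05. LEN against NT and NT against Base were fitted as the mean over the 12 models, as an F test of the difference between models and, for LEN, within each model. The procedure was tested on simulated data. Positions came from GENCODE on GRCm38. Every member was named, with up to 3 genes of the largest mean change from each list and the 3 genes most like Cdkn1a, Mdm2, Ccng1, Trp53, Cdkn2a and Cdkn2b. Other settings tried were log2(TPM + 0.1), a mean TPM filter set at 5 or left out, rescaling to the upper quartile or to protein-coding genes, no trend, a replicate block, and leaving out each tumor or model. Counts of tumors apart after rescaling or without BNL 1ME A.7R.1, correlations over model means and target levels without it, list counts under the rescalings and without that model, the Base test without that model and the fit of all 72 tumors without a single 4T1 tumor were chosen after seeing the data. A model was said to lack an RNA where every tumor was under 1 TPM. Same-numbered NT and LEN tumors correlated at -0.08 to 0.078 in their deviations, and NT and Base tumors at -0.15 to 0.10, so the numbers do not pair tumors.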

Additional observations from a re-analysis of the deposited data

Results flagged for a closer look

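The change with LEN differed between the 12 models for 4 of the 10 members by the limma F test, beside 35.3% of all genes, and for 9 members at the upper quartile. On the protein-coding scale it differed for 5 members, Gdf15 not among them. The adjusted p was 3.4e-20 for Mdm2, which was 2.43 higher in LEN tumors of BNL 1ME A.7R.1 together with its neighbours on chromosome 10, 4.9e-07 for Cdkn2a, 1.2e-04 for Cdkn1a and 0.023 for Gdf15. What made the models differ was not tested.

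The change from Base to NT differed between models for all 10 members, beside 66.5% of all genes. The adjusted p was 8.9e-11 for Trp53inp1, 6.3e-10 for Cdkn1a, 3.6e-08 for Ccng1 and 3.7e-07 for Mdm2. It was 6.9e-06 for Bax, 9.0e-05 for Gdf15, 1.3e-04 for Cdkn2b, 8.3e-04 for Bbc3, 9.6e-04 for Cdkn2a and 0.016 for Trp53. No group held more than 3 tumors, so no single tumor was tested against its own group.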

How the results depend on the processing

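The number of members called for the mean LEN change, 4, became 2 with a replicate block, without BNL 1ME A.7R.1 and without B16-F10, and genes called higher fell from 2371 to 1280 and 1440 in the first and second of these. Genes called lower rose from 1712 to 3163 with upper-quartile and 2889 with protein-coding rescaling. Members whose LEN change differed between models, 4, became 9 with upper-quartile rescaling and 2 with the replicate block, and 3 to 7 on leaving out 1 tumor, the 7 being without 4T1 LEN replicate 2. Over all genes that count went from 6122 to 1861 with the block and 3443 without BNL 1ME A.7R.1. Within models 7 calls became 12 in the fit of all tumors.

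For NT against Base, 5 members called became 2 with either rescaling, the replicate block and without KLN205, and 3 without 4T1 or without EMT6. Genes called higher, 2971, became 1419 (upper quartile), 1193 (protein-coding), 1082 (block), 1950 (without EMT6) and 1765 (without KLN205). Genes called lower, 2002, became 951 with a minimum of 5 TPM, 3524 (upper quartile), 4458 (protein-coding) and 830 (block). The difference between models went from 10 members to 6 and from 11587 genes to 4964 with the block. The block left 8 and 13 residual degrees of freedom, and the numbers are not known to pair tumors.

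Some mean differences that did not pass the test changed sign. With LEN, Cdkn2a became -0.10 at a pseudocount of 0.1 and -0.019 without BNL 1ME A.7R.1, Gdf15 -0.043 at that pseudocount, -0.0038 without EMT6 and -0.022 without MBT2, and Trp53inp1 0.0059 without BNL 1ME A.7R.1. Ccng1 became 0.028 without 4T1, 0.0036 without Renca and 0.019 without Hepa 1-6, and ran from -0.028 without 4T1 LEN replicate 2 to 0.018 without 4T1 LEN replicate 4 on leaving out 1 tumor. From Base to NT, Bax became -0.021 (upper quartile), -0.031 (protein-coding), -0.013 (without EMT6) and -0.0025 (without KLN205), and Trp53 -0.010 (protein-coding). Beyond what the rescalings and left-out samples construct, the cause was not tested.

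The LEN call of Trp53 was lost without any of 4 tumors (-0.10 each): CT26.WT NT replicate 5, RAG NT replicate 1, KLN205 LEN replicate 3 and 4T1 NT replicate 2. The Bbc3 call from Base to NT was lost without any of 16 tumors, at 0.16 to 0.17: Base replicates RAG 1, 4T1 3, CT26.WT 2, MC38 3, LL/2 1, MBT2 2 and Hepa 1-6 2, and NT replicates Hepa 1-6 2, CT26.WT 5, RAG 1, LL/2 2, Renca 2, KLN205 3, 4T1 3, MBT2 1 and EMT6 2. With LEN, Cdkn2b passed without Hepa 1-6 LEN replicate 5 (-0.13) or MBT2 NT replicate 1 (-0.14) and Cdkn2a without KLN205 LEN replicate 3 (0.11). From Base to NT, Cdkn2b passed without MBT2 NT replicate 1 (0.13) and Gdf15 without MC38 Base replicate 2 (0.15) or MBT2 NT replicate 3 (0.14). The calls of Cdkn1a and Mdm2 with LEN and of Cdkn1a and Trp53inp1 from Base to NT held under every alternative run. With 3 tumors a group and no read depth, small changes and values under 1 TPM are weakly resolved.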
